A study of Homo sapiens with 12 samples.

Results

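The 7 genes described here were GADD45A, GADD45B and GADD45G, DDIT4, and TRIB1, TRIB2 and TRIB3, taken by name as stress regulator genes. They were 7 of the 26334 genes in a table of read counts, and 6 of them were among the 12775 genes with enough reads to be tested. GADD45G was the member that missed this filter. Polyadenylated RNA was sequenced from shA673-1c cells, which derive from the Ewing sarcoma line A673 and express, under doxycycline, a short hairpin RNA directed at the EWS::FLI1 fusion. The groups were cells exposed to 5 µM actinomycin D, an inhibitor of transcription, for 1, 2 and 4 h, and cells at 0 h, with 3 biological replicates at each time. Every group, 0 h included, had been kept for 4 days in doxycycline (1 µg per ml), so that all values describe this 1 line after induction of the hairpin, and no group without doxycycline was analysed here.

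GADD45 proteins are small stress sensors without enzymatic activity. They bind the kinase MAP3K4, which feeds the p38 and JNK pathways, and also PCNA and the CDK1 kinase complex. DDIT4, also called REDD1, restrains the growth kinase complex mTORC1 through the TSC1-TSC2 complex and is induced by low oxygen, DNA damage and stress of the endoplasmic reticulum. Tribbles proteins are pseudokinases: TRIB1 and TRIB2 bring the ubiquitin ligase COP1 to C/EBP transcription factors, and TRIB3 is induced by ATF4 and CHOP and binds AKT. Many stress-induced mRNAs turn over quickly, and sequence elements in the 3′ untranslated region (3′ UTR) are among the features known to set that turnover. With transcription blocked, the level of an mRNA relative to the other mRNAs follows how fast it is lost relative to them.

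The libraries held 9381855 to 10929000 counts. FLI1, which carries the 3′ part of the fusion transcript, averaged 7.42 ± 0.639 CPM (counts scaled to a common depth by edgeR, from TMM-adjusted library totals) at 4 h and 20.5 ± 1.05 CPM at 0 h (SD, n = 3 each), and this does not check the hairpin, since every library had doxycycline. Of 8 Ewing sarcoma markers, 7 were detected at 0 h, with CCND1 at 494 CPM, FCGRT at 30.04 CPM, NKX2-2 at 1.57 CPM and NR0B1 at 4.57 CPM, and CD99 was listed at 0 in every library. Of 11 markers of other cell types, 3 passed the filter (CD68, HBB and PECAM1) and CD3E was at 0 in every library. The 11 together summed to 49.7 to 63.7 CPM at 4 h and 54.7 to 60.9 CPM at 0 h, and their part in the results was not tested.

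By symbol, all 7 genes were found in GENCODE release 29, which uses the GRCh38 build. The counts themselves were made on hg19 and carry no coordinates. All 7 lie on the plus strand. The representative transcript of GADD45A spans chr1:67685061-67688338 with 4 exons and a 3′ UTR of 564 bases, GADD45B spans chr19:2476127-2478259 with 4 exons and a 3′ UTR of 658 bases, and GADD45G spans chr9:89605013-89606555 with 4 exons and a 3′ UTR of 476 bases. DDIT4 spans chr10:72273920-72276036 with 3 exons and a 3′ UTR of 848 bases, and it is the member that another annotated gene overlaps: DDIT4-AS1, on the opposite strand, which is not a row of the count table. TRIB1 spans chr8:125430321-125438405 with 3 exons and a 3′ UTR of 1934 bases, TRIB2 spans chr2:12716889-12742734 with 3 exons and a 3′ UTR of 1940 bases, and TRIB3 spans chr20:380617-397559 with 4 exons and a 3′ UTR of 869 bases.

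The 3′ UTRs differed in the motifs linked to mRNA turnover. Searches were made on the transcript strand alone. They covered the AU-rich core ATTTA, the longer AU-rich element TATTTAT (which contains ATTTA), the Pumilio element TGTANATA and the short GU-rich sequence TGTTTGT. Longer GU-rich elements were not searched. GADD45A held 2 ATTTA and TRIB2 held 6, TRIB1 held 1, and GADD45B, GADD45G, DDIT4 and TRIB3 held 0. Those 4 genes also held 0 ATTTA in each of their complete annotated isoforms. The motifs of the other genes were absent from some isoforms: over 5 isoforms GADD45A held 0 to 2 ATTTA and 0 to 1 TATTTAT, over 3 isoforms TRIB2 held 0 to 6 and 0 to 1, and over 3 isoforms TRIB1 held 0 to 1 ATTTA and 0 to 3 TGTANATA. A window of the same length held at least 1 ATTTA in 57.6% of other 3′ UTRs for GADD45A, 62.6% for GADD45B, 70.5% for DDIT4, 71.2% for TRIB3, 89.9% for TRIB1 and 90% for TRIB2. TATTTAT occurred 1 time in GADD45A and 1 time in TRIB2, against 14.1% and 40.5% of windows of their lengths, and in no other member. TGTTTGT occurred 3 times in DDIT4 and in no other member, and 15% of windows of its length held at least 1 and 0.561% at least 3. The windows start at the 5′ end of 3′ UTRs, so those of longer 3′ UTRs leave out the 3′ end. The last DDIT4 match starts at base 835 of 848, so the comparison is unlike there. TGTANATA occurred 3 times in TRIB1 and in no other member, and 30.7% of windows of its length held at least 1 and 2.13% at least 3.

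The sites below are shown because DDIT4 had the steepest loss of the members, while GADD45A and TRIB2, which carry the longer AU-rich element, had shallow slopes. Each is 30 bases of the 3′ UTR from the GENCODE transcripts, 5′ to 3′, with the motif in capitals. The first and second DDIT4 windows overlap. The TRIB1 sites and the remaining ATTTA sites of TRIB2 are not shown, and GADD45B, GADD45G and TRIB3 held none of these motifs. Whether any motif bears on the rate of loss was not tested.
DDIT4, chr10:72275640-72275669, plus strand: gggaccaagtgTGTTTGTtgtttgttttgt
DDIT4, chr10:72275647-72275676, plus strand: agtgtgtttgtTGTTTGTtttgtatcttgt
DDIT4, chr10:72276007-72276036, plus strand: acttttctaataaacaTGTTTGTtaaaaca
GADD45A, chr1:67688260-67688289, plus strand: acatgaaaagtTATTTATgctataaatttt
GADD45A, chr1:67688041-67688070, plus strand: aactatgtattaATTTAgaatggttgagtt
TRIB2, chr2:12741968-12741997, plus strand: aagaactcttcTATTTATtaaggaaaatgt

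Per length, GADD45A was the most abundant member after 4 h of actinomycin D, TRIB2 was the most abundant at 0 h, and GADD45G was the least abundant at both times. In CPM per kilobase of the representative transcript, the 4 h levels were 17.2 ± 0.882 for GADD45A, 11.7 ± 2.09 for TRIB2, 7.90 ± 1.53 for TRIB3, 0.956 ± 0.485 for GADD45B, 0.601 ± 0.156 for DDIT4, 0.309 ± 0.0879 for TRIB1 and 0.104 ± 0.107 for GADD45G (SD, n = 3). Neighbours in this order whose libraries overlapped were GADD45B and DDIT4. The 0 h levels were 30.7 ± 4.33 for TRIB2, 23.2 ± 0.448 for GADD45A, 21.6 ± 4.67 for DDIT4, 17.5 ± 2.71 for GADD45B, 14.6 ± 1.48 for TRIB3, 5.04 ± 0.502 for TRIB1 and 0.435 ± 0.161 for GADD45G. At 0 h the libraries of GADD45A and DDIT4 overlapped, as did those of DDIT4 and GADD45B and those of GADD45B and TRIB3.

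**Figure D1:**
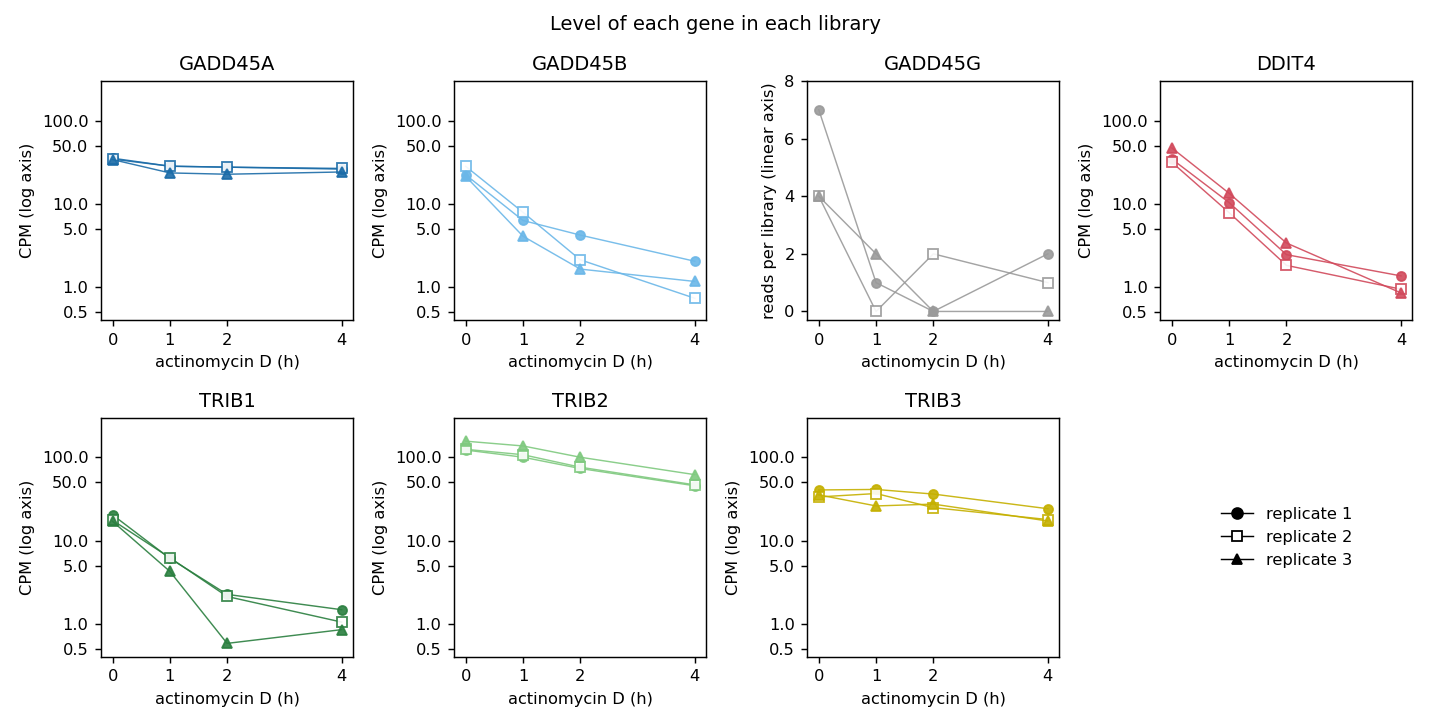
Level of each member in every library against hours of actinomycin D, in CPM on a log axis (reads for GADD45G), with 1 point per replicate. DDIT4, GADD45B and TRIB1 dropped to between 0.732 and 2.04 CPM at 4 h, while GADD45A stayed between 24.2 and 26.7 CPM.

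The first question the time course answers is which of these mRNAs were lost, and how soon. DDIT4, GADD45B and TRIB1 had fallen at 1 h and were among the most reduced of all tested genes at 4 h. TRIB2, TRIB3 and GADD45A had smaller changes at each time: TRIB3 had the smallest log2 change of the 6 tested members at 1 and 2 h, and GADD45A at 4 h.

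GADD45A, the p53-induced member of its family, had 35.4, 34.5 and 34.1 CPM at 0 h, 28.4, 28.4 and 23.6 CPM at 1 h, 27.6, 27.6 and 22.7 CPM at 2 h and 26.2, 26.7 and 24.2 CPM at 4 h (replicates 1, 2 and 3). All libraries at 1, 2 and 4 h lay below all 0 h libraries, and the 1, 2 and 4 h libraries overlapped each other. The mRNA stood at 77.1 ± 7.06% of its 0 h level at 1 h, 74.9 ± 7.26% at 2 h and 74.0 ± 3.20% at 4 h, computed within replicates (SD, n = 3). The log2 change was -0.43 at 4 h (SE 0.10, edgeR quasi-likelihood test with Benjamini-Hochberg adjustment over all tested genes, adjusted p = 0.00344), or -0.80 with libraries scaled to ribosomal protein genes (edgeR adjusted p = 3e-05), and -0.42 at 2 h (SE 0.10, edgeR adjusted p = 0.0136). At 1 h it was -0.37 (SE 0.10, edgeR adjusted p = 0.112), and -0.38 with the replicate as a block (edgeR adjusted p = 0.00088). The 2 h call was lost without 0 h replicate 1 (edgeR adjusted p = 0.0579) or 2 h replicate 3 (edgeR adjusted p = 0.0653).

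GADD45B, the family member induced by NF-κB and TGF-β signalling, had 22.4, 28.3 and 21.4 CPM at 0 h, 6.31, 7.92 and 4.09 CPM at 1 h, 4.21, 2.12 and 1.64 CPM at 2 h and 2.04, 0.732 and 1.17 CPM at 4 h. Replicate 2 was highest at 0 and 1 h and lowest at 4 h, and no library at 1, 2 or 4 h reached any 0 h library. The mRNA stood at 25.1 ± 5.21% of its 0 h level at 1 h, 11.3 ± 6.48% at 2 h and 5.72 ± 3.27% at 4 h (SD, n = 3). It was 18.3-fold lower at 4 h than at 0 h (log2 change -4.20, SE 0.36, edgeR adjusted p = 1.17e-06), the 30th lowest log2 change of the tested genes. At 1 h it was 3.94-fold lower than at 0 h (log2 change -1.98, SE 0.29, edgeR adjusted p = 0.00542), the 10th lowest. The 4 h values rest on 18, 7 and 11 reads, which limits their precision.

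GADD45G, the third family member, was near the detection limit: it had 7, 4 and 4 reads at 0 h, 1, 0 and 2 at 1 h, 0, 2 and 0 at 2 h and 2, 1 and 0 at 4 h. Summed over replicates, these were 15, 3, 2 and 3 reads. Scaled to library totals, the ratio to 0 h was 0.205 at 1 h (exact 95% counting interval 0.0381 to 0.726), 0.137 at 2 h (0.0152 to 0.59) and 0.211 at 4 h (0.0391 to 0.746). These intervals cover counting error only and no test was made.

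DDIT4, the mTORC1 inhibitor, had 34.6, 31.6 and 47.0 CPM at 0 h, 10.3, 7.83 and 13.4 CPM at 1 h, 2.45, 1.82 and 3.38 CPM at 2 h and 1.36, 0.941 and 0.848 CPM at 4 h. Replicate 3 was highest at 0, 1 and 2 h and lowest at 4 h, and the libraries of each time lay wholly below those of the time before. The mRNA stood at 27.7 ± 2.66% of its 0 h level at 1 h, 6.68 ± 0.797% at 2 h and 2.91 ± 1.07% at 4 h (SD, n = 3). It was 35.7-fold lower at 4 h than at 0 h (log2 change -5.16, SE 0.30, edgeR adjusted p = 3.12e-08), the 7th lowest of the tested genes, and 14.7-fold lower at 2 h than at 0 h (log2 change -3.88, SE 0.25, edgeR adjusted p = 9.03e-07). At 1 h it was 3.57-fold lower than at 0 h (log2 change -1.84, SE 0.21, edgeR adjusted p = 0.00146). The 4 h level rests on 12, 9 and 8 reads.

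TRIB1, which directs COP1 to C/EBPα, had 20.4, 17.5 and 17.0 CPM at 0 h, 6.10, 6.22 and 4.26 CPM at 1 h, 2.25, 2.12 and 0.580 CPM at 2 h and 1.47, 1.05 and 0.848 CPM at 4 h. Replicate 3 was lowest at each of the 4 times, and its 2 h value lay below all 4 h values. The mRNA stood at 30.2 ± 5.23% of its 0 h level at 1 h, 8.86 ± 4.75% at 2 h and 6.06 ± 1.12% at 4 h (SD, n = 3). It was 16.2-fold lower at 4 h than at 0 h (log2 change -4.02, SE 0.32, edgeR adjusted p = 5.86e-07) and 3.32-fold lower at 1 h than at 0 h (log2 change -1.73, SE 0.25, edgeR adjusted p = 0.00542).

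TRIB2, the most abundant member at 0 h, had 123, 125 and 157 CPM at 0 h, 101, 108 and 137 CPM at 1 h, 73.6, 76.3 and 100.5 CPM at 2 h and 45.6, 46.7 and 62.0 CPM at 4 h. Replicate 3 was highest at each of the 4 times, and within each replicate the level was lower at each later time. The mRNA stood at 85.3 ± 2.91% of its 0 h level at 1 h, 61.7 ± 2.16% at 2 h and 38.0 ± 1.34% at 4 h (SD, n = 3). It was 2.62-fold lower at 4 h than at 0 h (log2 change -1.39, SE 0.16, edgeR adjusted p = 1.97e-05) and had a log2 change of -0.69 at 2 h (SE 0.16, edgeR adjusted p = 0.0104), a call lost without 2 h replicate 2 (edgeR adjusted p = 0.0561). At 1 h the log2 change was -0.23 (SE 0.16, edgeR adjusted p = 0.832), and with the replicate block it was called (-0.23, edgeR adjusted p = 0.00102).

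TRIB3, the ATF4 and CHOP target, had 40.6, 33.5 and 35.4 CPM at 0 h, 41.2, 36.8 and 26.1 CPM at 1 h, 36.2, 24.9 and 27.4 CPM at 2 h and 24.1, 17.9 and 17.2 CPM at 4 h. Replicate 1 was highest at each time, and at 1 h the level was lower than at 0 h in 1 of 3 replicates. The mRNA stood at 94.97 ± 19.0% of its 0 h level at 1 h, 80.4 ± 7.85% at 2 h and 53.8 ± 5.49% at 4 h (SD, n = 3). It was 1.85-fold lower at 4 h than at 0 h (log2 change -0.89, SE 0.19, edgeR adjusted p = 0.00199). At 2 h the log2 change was -0.31 (SE 0.18, edgeR adjusted p = 0.326), and with the replicate block it was called (edgeR adjusted p = 0.00709).

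**Figure D2:**
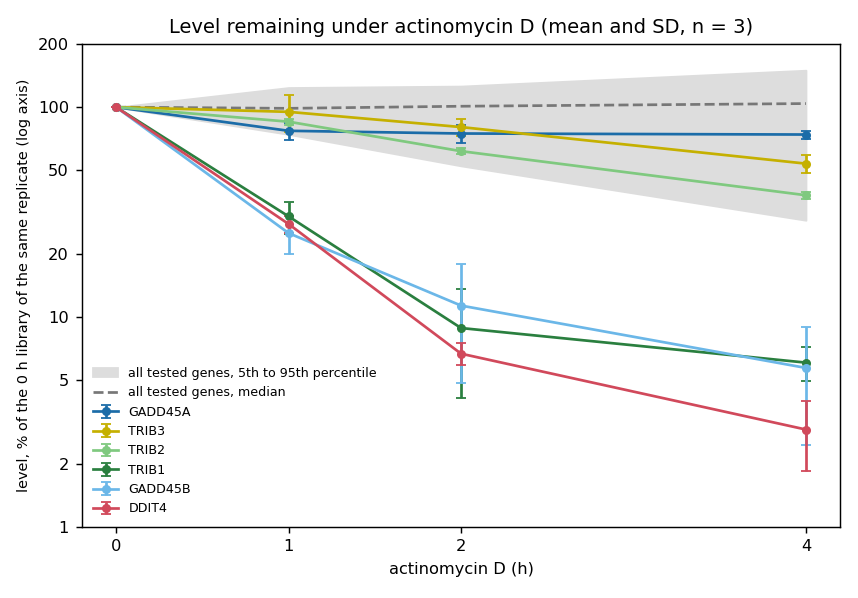
Percent of the 0 h level left at 1, 2 and 4 h, computed within each replicate and drawn as the mean ± SD over 3. The band spans the 5th to 95th percentile of all tested genes. At 4 h GADD45B, DDIT4 and TRIB1 lie at 5.72%, 2.91% and 6.06%, under the band, whose lower edge is 28.9%.

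Of the 6 tested members, 6 were called lower at 4 h against 0 h, where 24.6% of all tested genes were called lower. At 2 h against 0 h the count was 5 of 6, with 11.7% of all tested genes called lower, and at 1 h against 0 h it was 3 of 6, with 1.16% of all tested genes called lower. With the replicate block the counts were 6 of 6 at 2 h, with 19.5% of all tested genes, and 5 of 6 at 1 h, with 6.28%. The members called at 1 h in the fit without the block were GADD45B, DDIT4 and TRIB1. No member was called higher at any of these times. The members were chosen with earlier results of these data known, so the counts are a description beside the shares, without a test. The later libraries lay wholly below the 0 h libraries in 4 of 6 members at 1 h, in 5 of 6 at 2 h and in 6 of 6 at 4 h, and this was so in 9.55%, 18.3% and 27.5% of all tested genes.

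Between 1 and 2 h the loss continued in DDIT4 (log2 change at 2 h against 1 h -2.04, SE 0.27, edgeR adjusted p = 0.000593) and TRIB1 (-1.74, SE 0.33, edgeR adjusted p = 0.00673). These were 2 of 6 members, and 5.72% of all tested genes were called lower. GADD45B, at -1.19 (SE 0.35, edgeR adjusted p = 0.0617), and TRIB2, at -0.47 (SE 0.16, edgeR adjusted p = 0.105), were called with the replicate block (edgeR adjusted p = 0.000458 and 1.79e-08), which called 14.3% of all tested genes lower. GADD45B was also called with library totals (edgeR adjusted p = 0.0471), ribosomal protein scaling (0.0264), no filter (0.0397) and DESeq2 (0.0141), but not with RLE size factors. It was called without 1 h replicate 3 (edgeR adjusted p = 0.0351) or 2 h replicate 1 (edgeR adjusted p = 0.0224), or without replicate 3 at all times (0.0468). TRIB2 was called with ribosomal protein scaling (edgeR adjusted p = 0.0243) or without 2 h replicate 3 (edgeR adjusted p = 0.0462), or without replicate 3 at all times (0.00142). GADD45A had a log2 change of -0.04 and TRIB3 of -0.23 in this interval (edgeR adjusted p = 0.898 and 0.557). The 2 h libraries lay wholly below the 1 h libraries in 3 of 6 members and in 13.6% of all tested genes.

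Between 2 and 4 h, DDIT4 (log2 change at 4 h against 2 h -1.28, SE 0.39, edgeR adjusted p = 0.0295), TRIB2 (-0.70, SE 0.17, edgeR adjusted p = 0.00837) and TRIB3 (-0.58, SE 0.19, edgeR adjusted p = 0.0431) were called lower, 3 of 6 members, with 14.2% of all tested genes. GADD45B had -1.03 (SE 0.45, edgeR adjusted p = 0.125), and was called with the replicate block (edgeR adjusted p = 0.0187), which called 22.3% of all tested genes lower, with ribosomal protein scaling (0.0482) and by DESeq2 (0.046). Without 2 h replicate 1 its log2 change was -0.53 (edgeR adjusted p = 0.467). TRIB1 had -0.55 (SE 0.43, edgeR adjusted p = 0.401) and GADD45A -0.02 (SE 0.10, edgeR adjusted p = 0.932). The DDIT4 call was lost when 1 of these libraries was left out: 2 h replicate 1 (edgeR adjusted p = 0.056) or 3 (0.112), or 4 h replicate 2 (0.0882) or 3 (0.0963). The TRIB3 call was lost without the same libraries (edgeR adjusted p = 0.173, 0.0604, 0.136 and 0.136). Without replicate 3 at all times the DDIT4 call was lost (-0.91, edgeR adjusted p = 0.1004) and the TRIB3 call was kept (-0.56, 0.0462). TRIB1 was called without 2 h replicate 3 (-0.97, edgeR adjusted p = 0.0492). The 4 h libraries lay wholly below the 2 h libraries in 3 of 6 members and in 19.9% of all tested genes.

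A single slope of log2 level against hours, fitted over all 12 libraries, separated a fast from a slow set. DDIT4 lost 1.53 log2 units per hour (slope -1.53, SE 0.11, edgeR adjusted p = 1.64e-08), the 7th lowest slope of the tested genes. GADD45B and TRIB1 each had a slope of -1.20 per hour (SE 0.12 each, edgeR adjusted p = 7.89e-07 and 8.89e-07). As 1 divided by the slope, the apparent half-life relative to the other mRNAs was 39.3 min for DDIT4 (95% interval 34.6 to 45.5), 50.1 min for GADD45B (41.9 to 62.5) and 50.1 min for TRIB1 (41.7 to 62.6). These intervals use the SE and a normal quantile. By DESeq2 the slopes were shallower, at -1.34 per hour for DDIT4, -1.05 for GADD45B and -1.03 for TRIB1. With the replicate as a block in edgeR they were steeper, at -1.62, -1.30 and -1.30 in the same order. The half-lives were then 37 min (95% interval 33.8 to 40.9), 46.1 min (39.9 to 54.6) and 46.2 min (40 to 54.5). Each half-life averages over the 4 h. From 0 to 2 h alone, within replicates, DDIT4 changed by -1.96 ± 0.09 log2 units per hour, GADD45B by -1.64 ± 0.38 and TRIB1 by -1.85 ± 0.51 (SD, n = 3).

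The slow set had slopes of -0.36 per hour for TRIB2 (SE 0.04, edgeR adjusted p = 1.32e-06), -0.23 for TRIB3 (SE 0.04, edgeR adjusted p = 0.000539) and -0.09 for GADD45A (SE 0.03, edgeR adjusted p = 0.0177). The apparent relative half-lives were 2.80 h for TRIB2 (95% interval 2.32 to 3.53), 4.37 h for TRIB3 (3.16 to 7.08) and 10.6 h for GADD45A (6.48 to 29.2). For GADD45A the half-life averages over unlike intervals. It changed by -0.38 ± 0.14 log2 units in the first hour and by -0.01 ± 0.05 per hour from 2 to 4 h (SD, n = 3). All 6 slopes were called lower, where 25.5% of all tested genes were. The GADD45A call was lost without 0 h replicate 1 (edgeR adjusted p = 0.0521). No spike-in was used in the scaling, and with libraries scaled to 86 ribosomal protein genes, which moved the median log2 change of all tested genes at 4 h to -0.32 (0.05 with TMM), the half-life of GADD45A was 5.19 h, that of TRIB3 3.05 h, that of TRIB2 2.19 h and that of DDIT4 37.6 min.

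**Figure D3:**
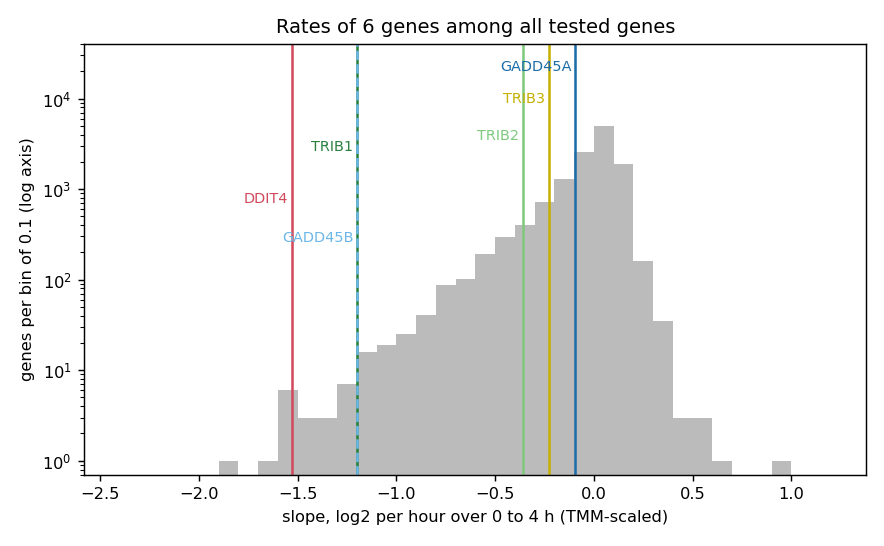
Distribution of the slope of log2 level per hour of actinomycin D over all 12775 tested genes, with the 6 tested members marked. DDIT4 at -1.53, GADD45B and TRIB1 at -1.20 lie in the low tail, and GADD45A at -0.09 lies in the main body.

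Whether the loss slowed after 2 h was tested by the change of rate, and for the fast genes the call depended on the fit. The change of rate compares the log2 change of the last 2 h with that of the first 2 h (later minus earlier). It was 2.91 for TRIB1 (SE 0.66, edgeR adjusted p = 0.0846), 2.59 for DDIT4 (SE 0.59, edgeR adjusted p = 0.0857), 2.14 for GADD45B (SE 0.70, edgeR adjusted p = 0.221) and 0.40 for GADD45A (SE 0.18, edgeR adjusted p = 0.386). It was -0.00 for TRIB2 (SE 0.28, edgeR adjusted p = 0.998) and -0.28 for TRIB3 (SE 0.32, edgeR adjusted p = 0.8005). In this fit 0 of 6 members were called above 0, where 0.384% of all tested genes were called above 0. Unadjusted, 4 of 6 had a p under 0.05 and a value above 0, as did 6.83% of all tested genes. DESeq2 called 2, TRIB1 and DDIT4 (DESeq2 adjusted p = 0.00203 and 0.00192), and 0.603% of all tested genes. Without replicate 3 at all times edgeR called 1 member, DDIT4 (3.04, edgeR adjusted p = 0.0339), and 37 genes above 0. With the replicate block, 4 of 6 were called, where 7.39% of all tested genes were: TRIB1 (2.93, edgeR adjusted p = 0.000518), DDIT4 (2.60, 0.000196), GADD45B (0.00754) and GADD45A (0.0477).

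Per interval, in log2 units per hour and within replicates, DDIT4 changed by -1.85 ± 0.14 from 0 to 1 h, -2.06 ± 0.06 from 1 to 2 h and -0.63 ± 0.32 from 2 to 4 h (SD, n = 3). TRIB1 changed by -1.74 ± 0.25, -1.96 ± 0.80 and -0.18 ± 0.41 over the same intervals, and GADD45B by -2.02 ± 0.32, -1.27 ± 0.66 and -0.51 ± 0.26. These 3 genes were near 1 CPM at 4 h, so that few reads lie behind the last interval. GADD45A changed by -0.38 ± 0.14 in the first hour, -0.04 ± 0.01 in the second and -0.01 ± 0.05 per hour after it, a loss within the first hour followed by a flat level. That flat level depends on the scaling: the log2 change of GADD45A at 4 h against 2 h was -0.02 with TMM, -0.11 with library totals (edgeR adjusted p = 0.467) and -0.25 with ribosomal protein scaling (edgeR adjusted p = 0.101). TRIB3 changed by -0.10 ± 0.31, -0.22 ± 0.32 and -0.29 ± 0.05 per hour.

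The log2 ratio of 2 members within a library does not depend on library scaling, and its slope over time was compared for all 15 pairs of the 6 tested members by a two-sided exact permutation test over the 369600 assignments of the 12 libraries to the 4 times, with Benjamini-Hochberg adjustment over the 15 pairs. Of these, 11 pairs differed in rate. Within the GADD45 family, GADD45A minus GADD45B was 0.92 ± 0.26 log2 units per hour (SD over 3 replicates, exact permutation adjusted p = 0.000467), so that GADD45B was lost faster. Within the Tribbles family, TRIB1 minus TRIB2 was -0.62 ± 0.09 (exact permutation adjusted p = 0.0161) and TRIB1 minus TRIB3 was -0.75 ± 0.06 (exact permutation adjusted p = 0.00492).

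Each fast gene differed from each slow gene, and over 0 to 2 h alone these 9 differences were 1.28 to 1.78 in size (exact permutation adjusted p = 0.00223 to 0.00595). Over 0 to 4 h the largest of these differences was GADD45A minus DDIT4, at 1.17 ± 0.14 (exact permutation adjusted p = 0.000122), and the smallest in size was TRIB1 minus TRIB2. Among the fast genes, GADD45B minus TRIB1 was -0.03 ± 0.23 (exact permutation adjusted p = 0.778), GADD45B minus DDIT4 was 0.25 ± 0.27 (0.1002) and DDIT4 minus TRIB1 was -0.28 ± 0.07 (0.1002). These did not pass the threshold, which does not show that the rates are alike. With assignments exchanged only within replicates DDIT4 minus TRIB1 did pass (within-replicate permutation adjusted p = 0.0301). That pair also passed without 2 h replicate 3 (-0.30, exact permutation adjusted p = 0.0131) or without replicate 3 at all times (-0.24, 0.0135).

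Among the slow genes, GADD45A minus TRIB2 was 0.27 ± 0.02 (exact permutation adjusted p = 0.00585) and GADD45A minus TRIB3 was 0.14 ± 0.04 (0.0386). TRIB2 minus TRIB3 was -0.13 ± 0.03 (exact permutation adjusted p = 0.154; within-replicate permutation adjusted p = 0.00928). The GADD45A and TRIB3 difference was lost without replicate 1 at 0 h (exact permutation adjusted p = 0.0537), replicate 2 or 3 at 1 h (0.0577 and 0.0555), replicate 2 at 2 h (0.0501), or replicate 2 or 3 at 4 h (0.141 and 0.124). That difference was also lost without replicate 3 at all times (exact permutation adjusted p = 0.139). Over 0 to 2 h alone it was -0.05 (exact permutation adjusted p = 0.639), the opposite sign, and GADD45A minus TRIB2 was 0.14 (0.445).

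**Figure D4:**
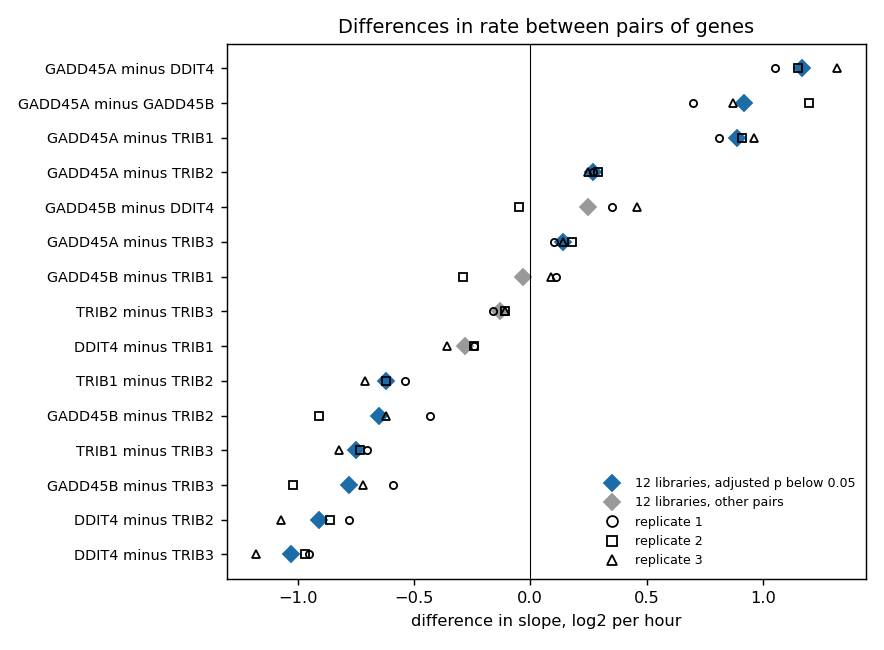
Difference in slope (log2 units per hour, first gene minus second) for the 15 pairs of tested members, with points for the 3 replicates and the mean. The pairs of a slow and a fast gene lie between 0.62 and 1.17 in size, and GADD45B minus TRIB1 lies at -0.03.

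The makeup of the GADD45 family shifted toward GADD45A. In CPM per kilobase, its share of the summed GADD45 level at 0, 1, 2 and 4 h was 56.5 ± 3.59%, 80.1 ± 3.35%, 89.9 ± 3.69% and 94.2 ± 2.79% (SD, n = 3), while that of GADD45B was 42.4 ± 3.80%, 19.5 ± 3.78%, 9.74 ± 3.91% and 5.21 ± 2.43%. In the Tribbles family TRIB1 was 1.56 ± 0.443% of the summed level at 4 h and 10.1 ± 1.37% at 0 h. TRIB2 was 58.7 ± 7.89% at 4 h and 60.8 ± 4.67% at 0 h, and TRIB3 was 39.7 ± 7.44% at 4 h and 29.1 ± 3.34% at 0 h. These shares describe the same values as the slopes and were not tested on their own.

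**Figure D5:**
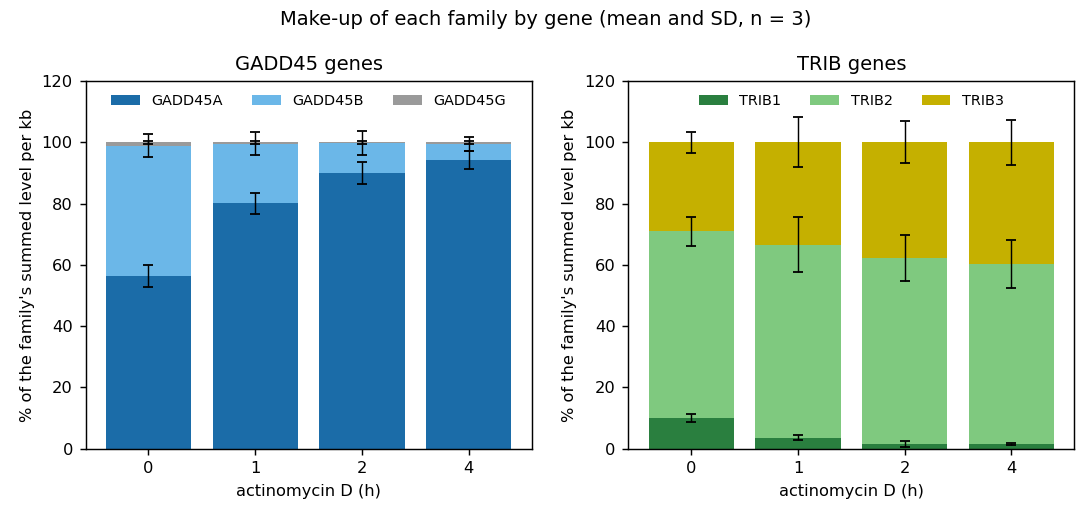
Share of the summed CPM per kilobase of each family held by each member at 0, 1, 2 and 4 h of actinomycin D, as the mean over 3 replicates. At 4 h GADD45A makes up 94.2% of the GADD45 family and TRIB1 1.56% of the Tribbles family.

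The genes with the most similar time courses were found by Euclidean distance over the log2 changes at 1, 2 and 4 h. The candidates were 10371 tested genes with at least 5 CPM at 0 h. The members themselves were left out of the candidates, and distances between members are not given. For TRIB1 the nearest were DUSP6 (distance 0.33), SOCS3 (0.49) and JUN (0.77), for GADD45B they were DUSP6 (0.60), SOCS3 (0.75) and JUN (0.82), and for DDIT4 they were NFKBIA (0.80), HES1 (0.85) and DUSP6 (1.00). Few genes outside the members had courses this steep: 2 candidates lay within 0.5 of TRIB1, 0 of GADD45B and 0 of DDIT4. The slow members had many neighbours, with 631 within 0.5 of TRIB2 (nearest ZNF609, SNHG7 and GPANK1, each at 0.03), 1486 of TRIB3 (WTAP at 0.02, PYGO1 and FIGNL1 at 0.03) and 1518 of GADD45A (LOC220729, CLK4 and NOP14-AS1, each at 0.09).

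Genes for the partners through which these proteins act were called in both directions at 4 h. Of 14 tested GADD45 partners and MAP kinase genes, 0 were called at 1 or 2 h (with the replicate block, 0 lower and 1 higher at 1 h, and 2 lower and 2 higher at 2 h). At 4 h 4 were called lower and 5 higher, and 6 and 6 with the block (list median log2 0.01, against 0.05 over all tested genes, of which 24.6% were called lower and 23.3% higher). The block called 6.28% of all tested genes lower at 1 h, 19.5% at 2 h, and 3934 of 12775 at 4 h. MAPK14, which encodes p38α, had 63.7 ± 3.05 CPM at 4 h and 88.5 ± 3.39 CPM at 0 h (log2 change -0.47, SE 0.06, edgeR adjusted p = 3.53e-05). MAP2K4, an activator of JNK and p38, also fell (-0.58, SE 0.09, edgeR adjusted p = 0.000224). With ribosomal protein scaling MAPK14 had -0.84 and MAP2K4 -0.95. MAPK12, at 0.45, and MAPK8, the JNK1 gene, at 0.37 (edgeR adjusted p = 0.000704 and 0.00306), were called higher with TMM. With ribosomal protein scaling they had 0.08 and -0.00 (edgeR adjusted p = 0.568 and 0.987). Under that scaling 6 genes of the list were called lower and 0 higher, where 5824 of all 12775 tested genes were called lower.

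Of 18 tested genes of the DDIT4 and mTORC1 branch, 1 was called lower at 1 h (2 lower and 1 higher with the replicate block), 3 lower and 0 higher at 2 h (3 and 5 with the block), and 5 lower and 8 higher at 4 h (7 and 9 with the block; list median log2 0.07), or 9 lower and 0 higher with ribosomal protein scaling. Over all tested genes 1.16% were called lower at 1 h, 11.7% at 2 h, and 24.6% lower and 23.3% higher at 4 h. With ribosomal protein scaling 5824 of all 12775 tested genes were called lower at 4 h. With the block 6.28% were called lower at 1 h, 19.5% at 2 h, and 3934 genes at 4 h. SESN2, another stress-induced inhibitor of mTORC1, had 3.74 ± 0.816 CPM at 4 h and 18.1 ± 1.39 CPM at 0 h (log2 change -2.27, SE 0.18, edgeR adjusted p = 6.24e-07). TXNIP, a thioredoxin-binding protein, was the gene of this list called at 1 h without the block (-0.42, SE 0.08, edgeR adjusted p = 0.0223), and it stood at -0.87 at 4 h (edgeR adjusted p = 2.46e-06). RPTOR, the mTORC1 scaffold, fell as well (-0.51, SE 0.07, edgeR adjusted p = 6.19e-05), with -0.88 under ribosomal protein scaling. TSC2, which encodes a subunit of the complex through which DDIT4 acts, was called higher at 4 h with TMM (0.60, SE 0.08, edgeR adjusted p = 6.66e-05) but not with ribosomal protein scaling (0.23, edgeR adjusted p = 0.0802).

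Of 12 tested Tribbles partners and substrates, 1 was called lower at 2 h (3 with the replicate block), and 4 lower and 3 higher at 4 h (4 and 5 with the block; list median log2 -0.00), or 6 lower and 0 higher with ribosomal protein scaling. Over all tested genes 11.7% were called lower at 2 h, and 24.6% lower and 23.3% higher at 4 h. The block called 19.5% lower at 2 h. At 4 h the block called 3934 and ribosomal protein scaling 5824 of all 12775 tested genes lower. CEBPB, a C/EBP factor, had 2.52 ± 0.569 CPM at 4 h and 9.77 ± 0.299 CPM at 0 h (log2 change -1.95, SE 0.18, edgeR adjusted p = 2.2e-06). AKT1, AKT2 and MAP2K2 were called higher with TMM (0.43, 0.35 and 0.49) and had 0.06, -0.02 and 0.12 with ribosomal protein scaling (edgeR adjusted p = 0.524, 0.829 and 0.271). COP1 was in the table under its older symbol RFWD2.

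Among the stress transcription factors that act upstream of these genes, and in a list of stress-inducible genes that shares DDIT3 with them, most calls were lower. Of 14 such factors, 1 was called lower at 1 h (5 with the replicate block), 7 at 2 h and 8 at 4 h, and 1 was called higher at 4 h (list median log2 -0.40 at 4 h). With the block, 8 were called lower and 2 higher at 2 h, and 9 and 2 at 4 h. Over all 12775 tested genes, 148 were called lower and 22 higher at 1 h, 1496 and 433 at 2 h, and 3148 and 2975 at 4 h. The block called 6.28% of all tested genes lower at 1 h, 19.5% at 2 h, and 3934 genes lower at 4 h. The factor called at 1 h without the block was DDIT3, which encodes CHOP, and it had 2.72 ± 0.691 CPM at 4 h and 21.2 ± 2.62 CPM at 0 h (log2 change -2.97, SE 0.23, edgeR adjusted p = 4.82e-07). FOXO3 had 4.72 ± 0.235 CPM at 4 h and 29.5 ± 2.08 CPM at 0 h (log2 change -2.64, SE 0.10, edgeR adjusted p = 1.88e-09). XBP1, a factor of the unfolded protein response, changed by -2.09 and CEBPG, a partner of ATF4, by -1.46 (edgeR adjusted p = 5.06e-08 and 3.41e-06).

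Of 18 genes listed as stress-inducible, with DDIT3 counted here again, 3 were called lower at 1 h, 10 at 2 h and 15 at 4 h, and 0 higher (list median log2 -1.19 at 4 h). Over all tested genes the shares called lower were 1.16%, 11.7% and 24.6% at these times. With the replicate block 9 genes of the list were called lower at 1 h, 15 at 2 h and 15 at 4 h, and 0, 1 and 1 higher at these times. The block called 6.28% of all tested genes lower at 1 h, 19.5% at 2 h, and 3934 of 12775 at 4 h. The genes called at 1 h without the block were DDIT3, PLK2 and ADM. PLK2, a p53-induced polo-like kinase, had 4.66 ± 0.318 CPM at 4 h and 158 ± 31.1 CPM at 0 h (log2 change -5.08, SE 0.19, edgeR adjusted p = 1.53e-09). ADM, the hypoxia-induced peptide adrenomedullin, changed by -3.19 and PPP1R15B by -1.41 (edgeR adjusted p = 6.52e-08 and 1.22e-08). PPP1R15B was in this list although it encodes the constitutive subunit of the eIF2α phosphatase. PLK2 had a log2 change of -0.68 at 1 h against 0 h (SE 0.14, edgeR adjusted p = 0.0333), where GADD45B had -1.98 and DDIT4 -1.84. With ribosomal protein scaling PLK2 was not called at 1 h (edgeR adjusted p = 0.0518). That scaling called 2 genes of the list and 118 of all 12775 tested genes lower at 1 h.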

How the data were processed

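The authors deposited raw read counts per gene symbol for 12 libraries; they named FastQC, STAR and hg19 without versions, per the submitters' processing notes. Per the labels' protocols, the library kit (TruSeq mRNA) was stranded. The counting program, annotation and strand setting are not given in the sources used here, so reads of DDIT4 and its antisense partner DDIT4-AS1 could not be told apart, and the treatment of reads from near-identical genes is unknown.

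The 7 members were taken by symbol. Members and gene lists were chosen with earlier results of these data known. The tool was edgeR 4.0.16 (R 4.3.3): genes were filtered with filterByExpr on the time groups, libraries scaled by TMM, and genes tested by the quasi-likelihood test over all 12 libraries, with Benjamini-Hochberg adjustment over 12775 genes and a threshold of 0.05. Each standard error is the size of the log2 change over the root of its F value. CPM are per TMM-scaled total. The scripts were tested on simulated data. Totals were 9381855 to 10929000 counts per library, and intervals from them cover counting error only.

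Replicate numbers come from the labels. Libraries with the same number deviated together from their time means (r = 0.263 to 0.649 over 18 pairs, against -0.501 to 0.160 over 36 pairs with different numbers), so the numbers pair the libraries, and the fit with a replicate block is given where it changes a member's call or moves a list's count. No replicates were identical (chi-square per degree of freedom 4.27 to 15.8). Replicate 3 stood further apart: the values were 4.27 to 5 between replicates 1 and 2, and 8.89 to 15.8 between replicate 3 and either.

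Member pairs were compared by the slope of the log2 ratio of counts with a pseudocount of 0.5. Alternatives were library totals, RLE size factors, scaling to 86 ribosomal protein genes, no filter, DESeq2 1.42.0, the replicate block, another pseudocount (2), 0 to 2 h alone, and leaving out each library or replicate 3. Named genes were all 7 members; of each list, genes called at 1 h, otherwise up to 4 with the smallest adjusted p at 4 h (TXNIP, DDIT3, PLK2 and ADM were called at 1 h); the 3 nearest genes per member; and FLI1, GAPDH and ACTB. GAPDH and ACTB had log2 changes of 0.44 and 0.33 at 4 h against 0 h with TMM, and 0.07 and -0.04 with ribosomal protein scaling. Motif shares are over GENCODE 29 3′ UTRs at least as long as the member's, cut to its length from their 5′ end.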

Additional observations from a re-analysis of the deposited data

Results flagged for a closer look

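In 4 members the loss differed between the first and the last 2 h in the fit with the replicate as a block, a test of the difference between intervals. The change of rate (log2 change over 2 to 4 h minus 0 to 2 h) was 2.93 for TRIB1, 2.60 for DDIT4, 2.14 for GADD45B and 0.40 for GADD45A (edgeR adjusted p = 0.000518, 0.000196, 0.00754 and 0.0477). The block fit called 7.39% of all tested genes above 0 in this contrast. The same contrast without the block called 0 of the 6 tested members and 0.384% of all tested genes above 0. TRIB1, DDIT4 and GADD45B had 0.732 to 2.04 CPM at 4 h, and the part of this low level in the result was not tested.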

How the results depend on the processing

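All 6 members were called lower at 4 h against 0 h in every alternative run. No called log2 change or slope of a member changed sign under the scalings, tool, filter, block or omissions tried; uncalled values near 0 did (GADD45A between 1 and 2 h and between 2 and 4 h, TRIB3 at 1 h). Of the called pairs, GADD45A minus TRIB3 changed sign: its rate difference was -0.051 over 0 to 2 h alone; the cause was not tested.

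With the replicate block, the members called lower were 5 at 1 h against 0 h and 4 at 2 h against 1 h, and 4 had a called change of rate above 0. Over all tested genes the block called 802 lower at 1 h, 2496 at 2 h, 1827 at 2 h against 1 h and 2851 at 4 h against 2 h, and 944 with a change of rate above 0. Beyond those printed beside the results, the block changed no call of a member.

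With ribosomal protein scaling, 5824 genes were called lower at 4 h against 0 h, 1491 at 2 h against 1 h, 3836 at 4 h against 2 h, 6090 by slope, and 30 with a change of rate above 0; 4 members were called lower at 2 h against 1 h. This scaling shifts all log2 changes of a library together. Without the filter 2 members and 52 genes had a called change of rate above 0, and DESeq2 called 2 members and 77 genes.

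Leaving out 1 library or replicate 3 gave 44 to 173 genes called lower at 1 h, 403 to 719 at 2 h against 1 h and 4 to 43 genes with a change of rate above 0. The members called were 2 to 4 at 2 h against 1 h, 1 to 3 at 4 h against 2 h and 0 to 1 for the change of rate. The cause was not tested. Depth limits GADD45B, DDIT4, TRIB1 and GADD45G at 2 and 4 h.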

Other observations

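Members differed in which replicate was highest. Replicate 3 was highest for TRIB2 and lowest for GADD45A and TRIB1 at all 4 times, and replicate 1 was highest for TRIB3 at all 4 times. No test was made of these orders.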
